A study of Mus with 15 samples.

Results

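The collagen chain genes were taken as the protein-coding rows of the deposited matrix whose symbol consists of Col, a type number, the letter a and a chain number. This rule picked 44 of 55471 genes. Their mRNA was sequenced in a study of how grafted fat survives, with 5 samples per group: control adipose tissue, grafts labelled day 3, and grafts labelled day 7. All groups come from C57BL/6 mice, wild type and 7 weeks old. Libraries held 17.1 to 32 M counts. The labels do not give the fat depot, the grafting procedure or the animal behind each replicate. The p-values therefore measure the spread between these samples, which may be technical. Of the 44 chains, 36 had enough counts to be tested (at least 0.389 CPM in at least 5 samples), and 25 of these reached that level in all 15 samples. Col2a1, Col10a1, Col9a1, Col9a2, Col19a1, Col13a1, Col25a1 and Col26a1 were not tested. Levels are given in TPM, a transcript's share of the library corrected for gene length, where chains are compared with each other. Otherwise they are in CPM, counts relative to the scaled library total, which is the scale of the test. Changes are log2 fold changes ± SE from a limma-voom fit, with Benjamini-Hochberg adjusted p-values over 16051 genes and 5 samples in each group.

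Collagens are trimers of α chains wound around each other over stretches of repeated Gly-X-Y units. Fibrillar collagens (types I, III and V among them) form the banded fibrils of connective tissue and scar, FACIT collagens sit on the surface of those fibrils, and type IV builds the sheet of basement membranes. Type VI forms beaded microfibrils, types VIII and X form hexagonal networks, and the remaining types include anchoring fibrils, transmembrane collagens and the multiplexins of the basement membrane zone. In fat, each adipocyte is wrapped in a basement membrane rich in types IV and VI, and fibrillar collagens lie in the septa between lobules.

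The tissue was checked against marker genes. The summed level of 6 adipocyte markers (Adipoq, Plin1, Lep, Cfd, Cidec and Pparg) spanned 13098 to 24793 TPM in control tissue, 1363 to 4256 TPM in day 3 grafts and 286 to 688 TPM in day 7 grafts. That of 7 fibroblast markers was 534 to 1462, 889 to 2483 and 1971 to 2622 TPM. Of these, 3 were called higher at day 3 and 5 at day 7 than in the controls, beside 30.1% and 32.2% of all tested genes. Dpt and Pi16 were called at neither time. Myofibroblast and mural markers stood at 83.7 to 156 TPM in the controls and 112 to 166 TPM at day 3. They were at 895 to 969 TPM in 4 of the day 7 grafts and at 246 TPM in day 7 graft 5. At day 3, 1 of the 6 rose and 2 fell against the controls, beside 30.1% and 30.3% of all tested genes. Acta2 rose (1.16 ± 0.29, adjusted p = 0.00336), while Myh11 (-3.67 ± 0.63, adjusted p = 0.000185) and Des (-1.91 ± 0.59, adjusted p = 0.0122) fell. Macrophage markers summed to 126 to 485, 1277 to 2709 and 1849 to 2144 TPM. In bulk tissue, more cells of a type and more RNA per cell cannot be told apart, and the part of cell composition in the collagen changes was not tested. Some libraries stood apart. Control 5 had the highest collagen total of the controls and the highest control levels of fibroblast (1462 TPM) and macrophage (485 TPM) markers. Lymph node markers were at 24.4 TPM in control 4 and 823 to 1586 TPM in the other controls. Skeletal muscle markers were at 3348 TPM in control 2 and 494 TPM in day 3 graft 1.

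Collagen transcripts rose from a small to a large share of the mRNA of the grafts. Summed over the 44 chains, they were at 1072, 852, 864, 1434 and 2796 TPM in controls 1 to 5. The day 3 grafts held 12307, 10685, 6623, 11264 and 12963 TPM, and the day 7 grafts 15296, 17900, 17208, 17903 and 14160 TPM. The 3 groups did not overlap. As a share of all counts, the chains took 0.577 ± 0.32% (mean ± SD), 3.47 ± 0.772% and 5.21 ± 0.593%. The number of chains with a group mean of at least 100 TPM went from 3 in the controls (Col3a1, Col1a2 and Col4a1) to 11 at day 3 and 16 at day 7. The plot of TPM per sample shows each of the 44 chains by class.

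**Figure D1:**
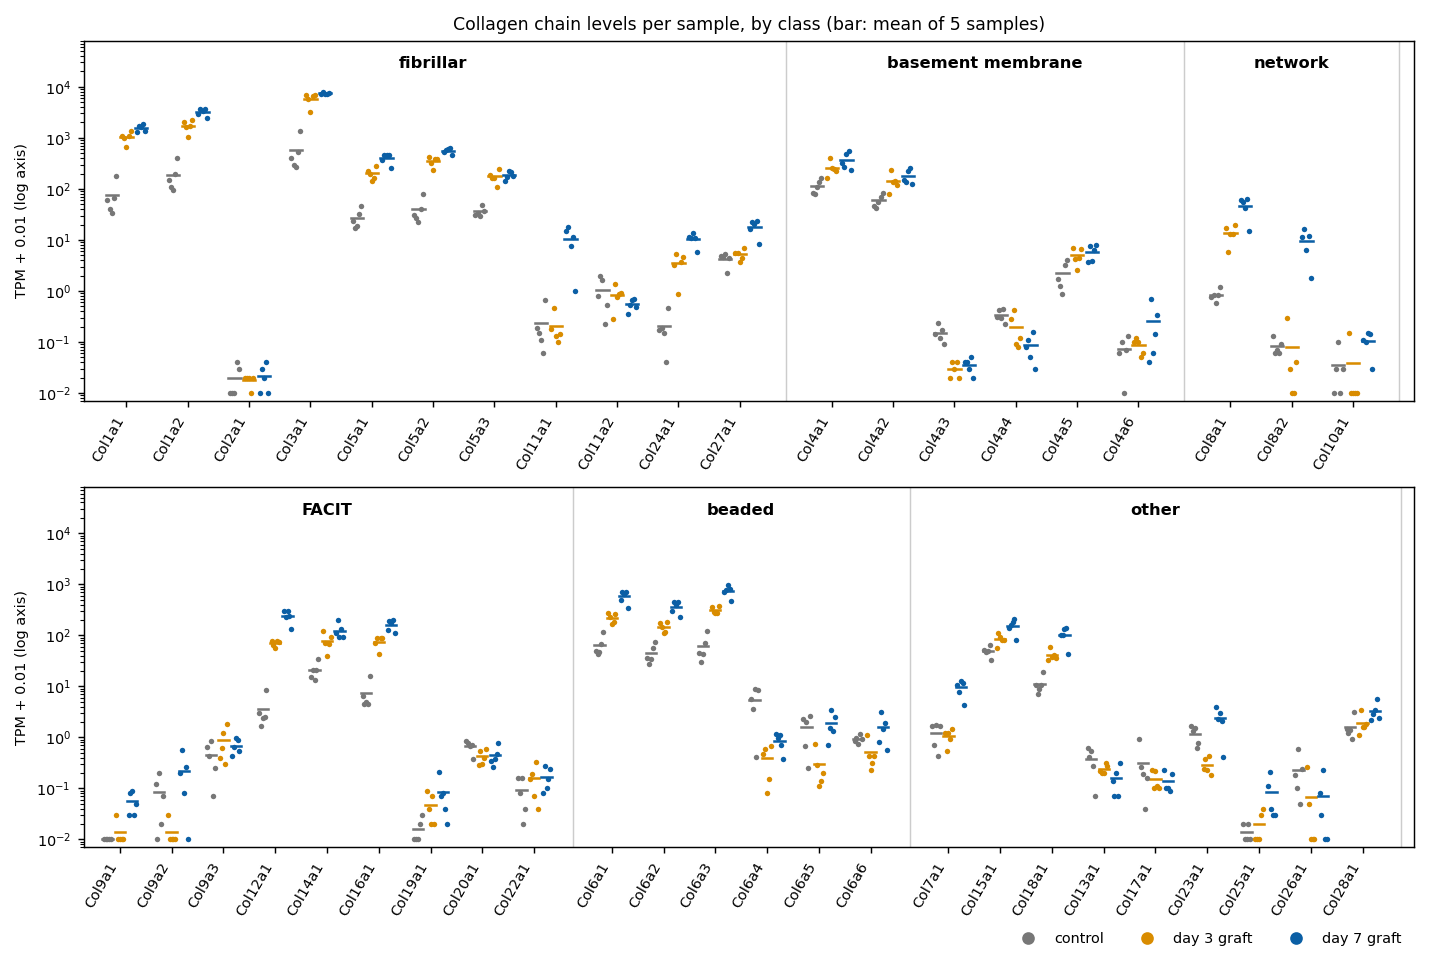
Level of each of the 44 collagen chains in every sample, in TPM plus 0.01 on a log axis, with points for samples and a bar for the mean of 5 samples, in control tissue (grey), day 3 grafts (orange) and day 7 grafts (blue). Col3a1, Col1a2 and Col1a1 reached 662 to 7979 TPM in the grafts, while chains such as Col2a1 and Col10a1 stayed under 1 TPM in all groups.

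Against the controls, 17 of the 36 tested chains rose at day 3 and 8 fell, where 30.1% of all 16051 tested genes were called higher and 30.3% lower. At day 7, 23 rose and 6 fell, beside 32.2% and 28.4% of all genes. From day 3 to day 7, 12 chains rose and none fell, beside 3.18% and 1.71%. With no chain called lower in limma, 1 was lower at an unadjusted p under 0.05, and limma-trend on log2(CPM + 1) or log2(TPM + 1) also called 0. The median log2 change of the tested chains was 0.69 at day 3 and 1.87 at day 7 against the controls, and 0.83 from day 3 to day 7. Over all tested genes it was -0.015, 0.03 and 0.02. Both graft groups are compared with the same controls, so the first and second comparison are not independent. Groups did not overlap for 15 higher and 3 lower chains at day 3 (20.6% and 19.9% of all genes), and for 20 and 2 at day 7 (22.7% and 19.8%). Between the graft groups this held for 13 higher and 0 lower chains (4.56% and 3.32%).

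The counts of lower chains against the controls, and of higher chains between the grafts, moved with the processing. On the log2(TPM + 1) scale, where the median of all genes lay 0.33 above 0 at day 3 and 0.436 at day 7, the chains split 20 higher to 5 lower and 24 to 3 (all genes 6480 to 2774 and 7229 to 2376). The 8 lower chains at day 3 became 5 when day 3 graft 3 was left out. The 6 lower chains at day 7 became 3 without control 1, control 2, control 5 or day 7 graft 5, and 2 without control 3. The 12 higher chains between the graft groups became 7 without day 7 graft 2, 3 or 4, and 17 without control 5, day 3 graft 1 and day 7 graft 5 together, where the share of all genes called higher was 6.61%. No alternative in which the chain was tested ended the call for 21 of the 25 chains called at day 3, 24 of 29 at day 7 and 6 of 12 between the grafts. Among these, Col4a3 was tested in 21 of the 29 alternatives.

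**Figure D2:**
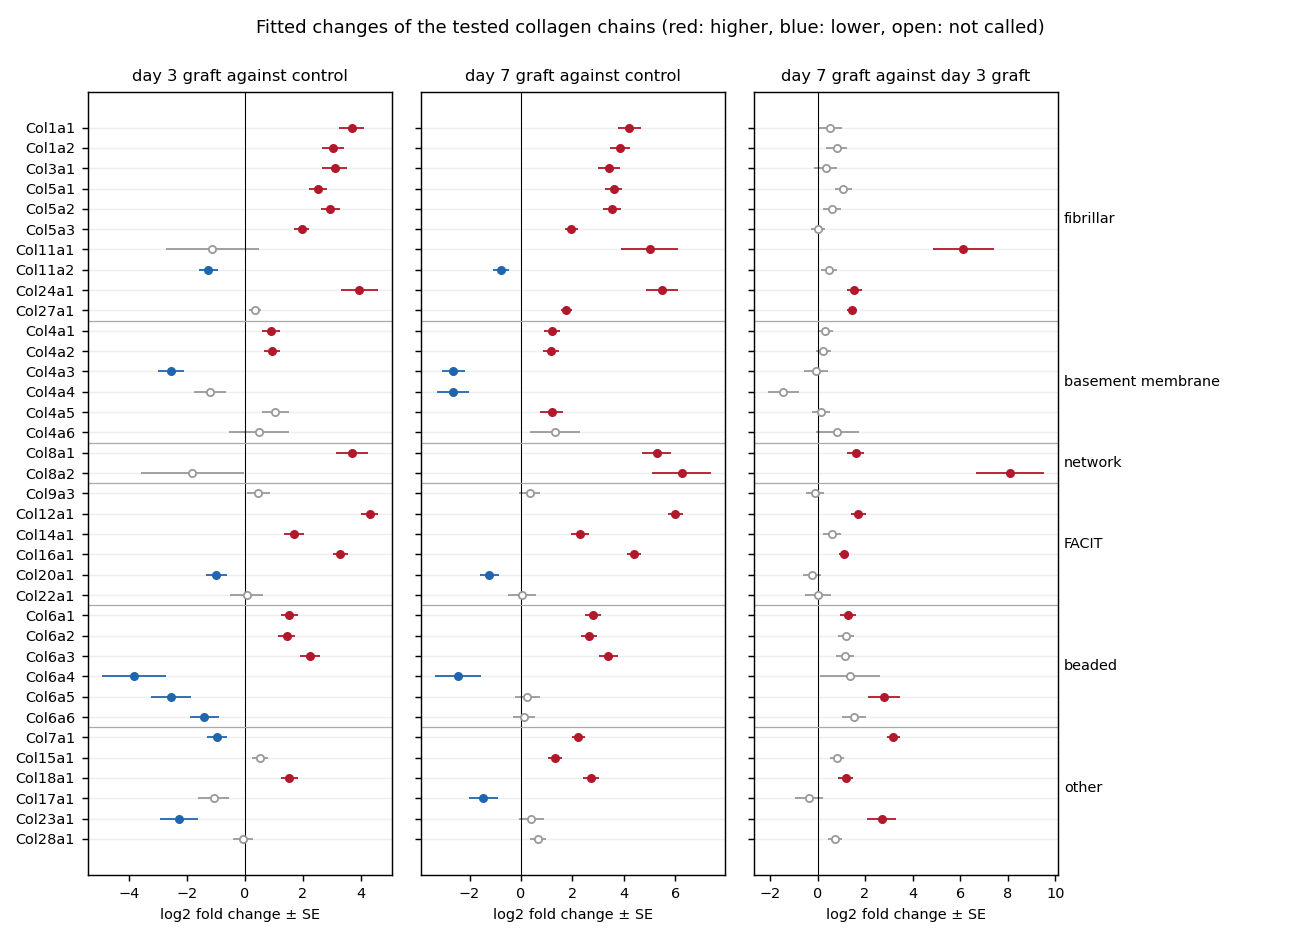
Log2 fold change with its SE for each of the 36 tested chains in the 3 comparisons, by class, with red for higher, blue for lower and open points for chains not called. Most fibrillar chains lie to the right in both comparisons with the controls, while Col4a3, Col6a4 and Col20a1 lie to the left.

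The make-up of the collagen pool also differed. Fibrillar chains made up 54.8 to 75.2% of collagen TPM in control tissue, 81.3 to 88.4% in day 3 grafts and 78.6 to 86.6% in day 7 grafts. Type IV chains went the other way, from 8.97 to 19.1% in the controls to 2 to 6.07% and 2.28 to 4.52%, while their summed level was 125 to 251, 247 to 634 and 362 to 810 TPM. Type VI chains held 11.6 to 16%, 5.04 to 8.25% and 7.37 to 11.7%. Col3a1 was the most abundant chain in each group, with 30.7 to 48.5%, 47.7 to 57.4% and 40.6 to 52.9% of collagen TPM. These shares are a description and were not tested.

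**Figure D3:**
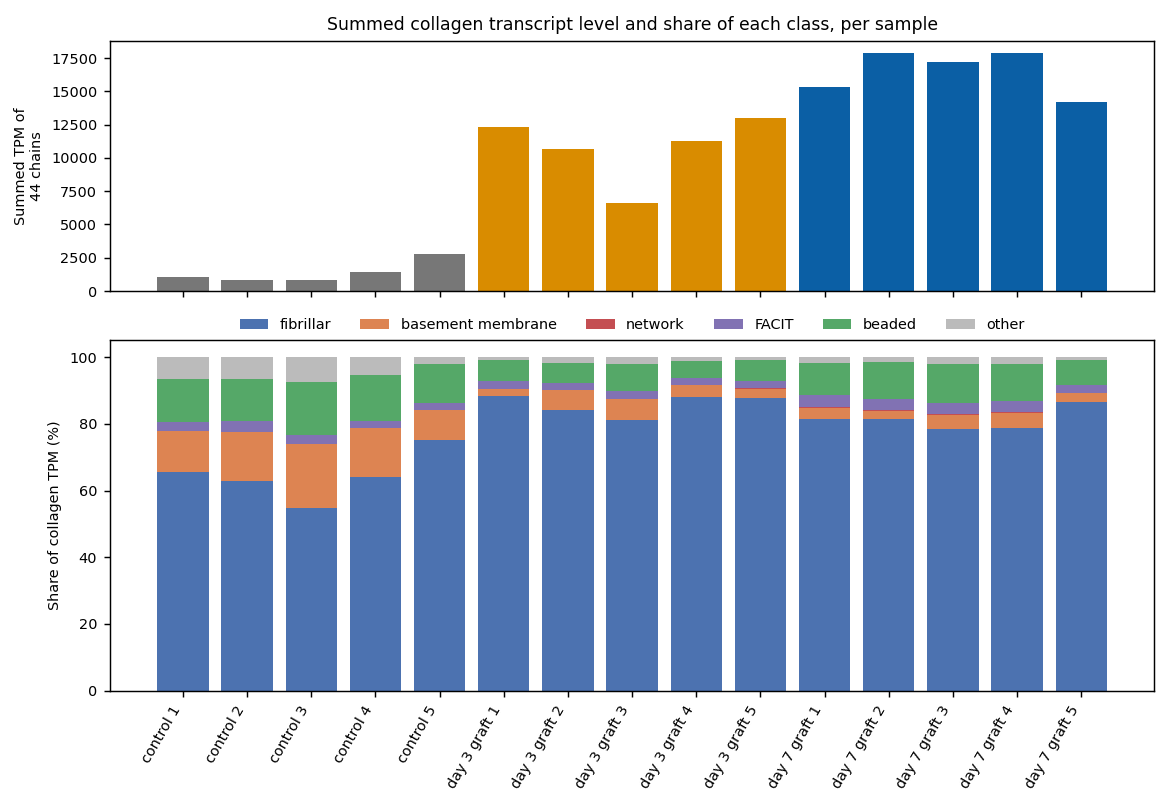
Upper panel, summed TPM of the 44 collagen chains in each of the 15 samples; lower panel, share of that sum in percent taken by each class. The total is 852 to 2796 TPM in the controls and 14160 to 17903 TPM in the day 7 grafts, and the fibrillar share is lowest in control 3 at 54.8%.

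Among the fibrillar chains, types I, III and V rose early and stayed high. Of 10 tested fibrillar chains, 7 rose and 1 fell at day 3, and 9 rose and 1 fell at day 7. Their median log2 changes were 2.73 and 3.58. Among all tested genes, 30.1% rose and 30.3% fell at day 3, and 32.2% and 28.4% at day 7. Col1a1 (ENSMUSG00000001506, chr11:94936224-94953042) encodes the α1 chain of type I, the main collagen of skin, bone and scar. It was at 60.6, 40.3, 34.4, 67.2 and 176 TPM in controls 1 to 5, 1079, 974, 662, 1076 and 1338 TPM in day 3 grafts 1 to 5, and 1294, 1674, 1649, 1851 and 1378 TPM in day 7 grafts 1 to 5. No graft overlapped a control, and control 5 was the highest control. The change was 3.68 ± 0.42 (adjusted p = 4.64e-06) at day 3 and 4.22 ± 0.43 (adjusted p = 1.62e-06) at day 7. Its partner Col1a2 (ENSMUSG00000029661, chr6:4504814-4541544) was at 149, 110, 95.5, 193 and 402 TPM in the controls, 2004, 1608, 1021, 1713 and 2288 TPM in the day 3 grafts and 2874, 3663, 3286, 3615 and 2481 TPM in the day 7 grafts. All day 7 grafts lay above all day 3 grafts, but the fitted difference between them did not pass (0.81 ± 0.44, adjusted p = 0.329). It passed under 2 of 29 alternatives, 1 of them the fit of the 2 graft groups alone (adjusted p = 0.0324). Against the controls Col1a2 changed by 3.04 ± 0.38 (adjusted p = 1.23e-05), and by 3.85 ± 0.40 (adjusted p = 2e-06).

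Col3a1 (ENSMUSG00000026043, chr1:45311538-45349706), which forms homotrimers in distensible tissues and early wound matrix, was at 402, 298, 265, 533 and 1355 TPM in the controls, 6961, 5704, 3161, 6466 and 6825 TPM in the day 3 grafts and 7211, 7979, 7259, 7277 and 7491 TPM in the day 7 grafts. Day 3 graft 3 was the lowest graft and still lay above every control. The change was 3.09 ± 0.43 (adjusted p = 2.6e-05) at day 3, and 3.44 ± 0.43 (adjusted p = 9.94e-06) at day 7. Between the graft groups it was 0.35 ± 0.48 (adjusted p = 0.748), and they overlapped in CPM, though not in TPM.

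Type V collagen joins type I fibrils from within and limits their width. Its chains Col5a1, Col5a2 and Col5a3 rose by 2.51 ± 0.31 (adjusted p = 1.16e-05), by 2.95 ± 0.33 (adjusted p = 4.93e-06) and by 1.95 ± 0.26 (adjusted p = 1.72e-05) at day 3. Col5a1 (ENSMUSG00000026837, chr2:27886425-28039514) was at 23.1, 17.3, 19.1, 32.2 and 45.5 TPM in the controls, 226, 198, 140, 167 and 287 TPM in the day 3 grafts and 364, 467, 467, 453 and 259 TPM in the day 7 grafts. Col5a2 (ENSMUSG00000026042, chr1:45374321-45503282) was at 30.5, 27.1, 22.4, 40.9 and 80.1 TPM in the controls, 413, 322, 236, 385 and 392 TPM in the day 3 grafts and 533, 590, 604, 638 and 459 TPM in the day 7 grafts. In CPM the 3 groups were separate for both chains, with day 7 above day 3, while in TPM day 7 graft 5 fell inside the day 3 range for Col5a1. The fitted differences between the grafts did not pass for Col5a1 (1.09 ± 0.36, adjusted p = 0.0989) or Col5a2 (0.61 ± 0.38, adjusted p = 0.408). They passed under 7 and 1 of 29 alternatives. Col5a3 (ENSMUSG00000004098, chr9:20770050-20815067), a chain found in fewer tissues, had a flat course after day 3 with 30.6, 34.3, 29.8, 49 and 37.3 TPM in the controls, 187, 167, 161, 111 and 250 TPM in the day 3 grafts and 142, 171, 220, 217 and 181 TPM in the day 7 grafts. Its graft groups overlapped and their difference was 0.02 ± 0.28 (adjusted p = 0.982). At day 7 the changes against the controls were 3.60 ± 0.33 (adjusted p = 7.5e-07) for Col5a1, 3.56 ± 0.35 (adjusted p = 1.15e-06) for Col5a2, and 1.96 ± 0.26 (adjusted p = 1.49e-05) for Col5a3.

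The minor fibrillar chains of cartilage and bone followed other courses. Col11a1 (ENSMUSG00000027966, chr3:114030540-114220718), a chain of cartilage fibrils that is also made in fibrotic tissue, was at 1.15, 0.93, 0.543, 0.506 and 3.7 CPM in the controls, 0.801, 1.53, 0.38, 0.144 and 0.267 CPM in the day 3 grafts and 64.3, 67.3, 33.2, 49.1 and 5.57 CPM in the day 7 grafts. Day 3 grafts overlapped the controls (-1.13 ± 1.61, adjusted p = 0.562), and all day 7 grafts lay above both groups, with day 7 graft 5 far below its group. The day 7 change was 5.00 ± 1.12 (adjusted p = 0.00137) against the controls and 6.12 ± 1.28 (adjusted p = 0.0152) against day 3. Without day 7 graft 5 these were 5.64 and 6.77. Cartilage markers, all at a low level, followed Col11a1 only in part. The 6 of them summed to 0.32 to 1.6 TPM in control tissue, 1.89 to 3.26 TPM in day 3 grafts and 1.47 to 7.18 TPM in day 7 grafts, where day 7 graft 5 was again the lowest. Of the 4 tested, 2 rose at day 3 and 3 at day 7 against the controls, and 2 between the grafts (30.1%, 32.2% and 3.18% of all genes). At day 3, when Col11a1 was not called, these were Sox9 (3.09 ± 0.49, adjusted p = 9.33e-05) and Comp (1.28 ± 0.50, adjusted p = 0.0372). Acan rose by 4.97 ± 0.95 (adjusted p = 0.0104) between the grafts, and Matn3, listed at 0 in all controls, by 5.46 ± 0.88 (adjusted p = 0.00419). Their means were at most 0.0603 CPM in the controls and day 3 grafts. Both could therefore be tested only because they were high at day 7. Sox9 (0.29 ± 0.32, adjusted p = 0.672) and Comp (-0.75 ± 0.44, adjusted p = 0.371) were not called between the grafts. Hapln1 and Matn1 had too few counts to be tested. The part of the cartilage markers in the Col11a1 change was not tested.

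Col24a1 (ENSMUSG00000028197, chr3:145292472-145552011), a minor fibrillar chain of bone and cornea, was at 0.891, 0.697, 0.588, 0.253 and 1.28 CPM in the controls, 10.6, 11.3, 4.18, 14.1 and 15.4 CPM in the day 3 grafts and 33.2, 32.1, 41.8, 33 and 17.1 CPM in the day 7 grafts. It rose step by step without overlap, by 3.95 ± 0.64 (adjusted p = 0.000104) at day 3, and by 1.55 ± 0.31 (adjusted p = 0.0123) from day 3 to day 7. The second step missed the threshold on the log2(TPM + 0.1) scale (adjusted p = 0.0507). Col27a1, a chain of developing cartilage, was at 20.6, 15.5, 17.7, 13 and 14.3 CPM in the controls, 21.2, 20.7, 16.8, 18.2 and 24.6 CPM in the day 3 grafts and 54.6, 67.9, 61.7, 67.2 and 31.4 CPM in the day 7 grafts. The day 3 grafts overlapped the controls, while day 7 lay above both, with changes of 1.77 ± 0.21 (adjusted p = 7.07e-06) against the controls and 1.44 ± 0.20 (adjusted p = 0.00146) against day 3. Col11a2, the partner of Col11a1 in cartilage, was the fibrillar chain that fell. Its means were 3.55 ± 1.57 CPM, 1.31 ± 0.225 CPM and 1.88 ± 0.372 CPM. The change was -1.27 ± 0.33 (adjusted p = 0.0039) at day 3, and -0.78 ± 0.31 (adjusted p = 0.0397) at day 7. The groups overlapped at both times, and the day 7 call was lost under 16 other settings, among them those without control 1, 2 or 3, day 3 graft 4, or day 7 graft 1, 2, 3 or 5 (adjusted p 0.0501 to 0.101). Col2a1, the main cartilage collagen, had 0 to 4 counts in a sample.

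The basement membrane chains split by pair. Col4a1 (ENSMUSG00000031502, chr8:11198423-11312826) and Col4a2 (ENSMUSG00000031503, chr8:11312805-11449287), which form the type IV trimer found in nearly all basement membranes, rose in the grafts. Col4a1 was at 84.3, 80.1, 109, 139 and 164 TPM in the controls, 161, 399, 260, 249 and 220 TPM in the day 3 grafts and 327, 265, 493, 551 and 232 TPM in the day 7 grafts. Its day 3 change was 0.88 ± 0.31 (adjusted p = 0.0229), and the call was lost without control 1, control 2, control 3 or day 3 graft 2 (adjusted p 0.0569 to 0.0651). Col4a2 was at 46.8, 43.1, 55.2, 68.7 and 82.2 TPM in the controls, 78.4, 230, 139, 144 and 120 TPM in the day 3 grafts and 150, 134, 227, 253 and 122 TPM in the day 7 grafts, and its change was 0.93 ± 0.29 (adjusted p = 0.0136). For both chains day 3 graft 1 lay inside the control range in TPM, and day 3 grafts 1 and 5 did in CPM. At day 7 the changes were 1.20 ± 0.31 (adjusted p = 0.00395) for Col4a1 and 1.17 ± 0.30 (adjusted p = 0.00341) for Col4a2. In CPM the day 7 and control groups overlapped for Col4a1 and not for Col4a2. Neither passed between the graft groups, where none of the 6 type IV chains was called by limma, while 1 was lower at an unadjusted p under 0.05 and 0 were higher.

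Col4a3 and Col4a4, chains of the kidney filter and the lung, fell. Col4a3 was at 0.944, 0.697, 0.634, 1.69 and 0.569 CPM in the controls, 0.0801, 0.178, 0.127, 0.216 and 0.0762 CPM in the day 3 grafts and 0.187, 0.167, 0.0901, 0.236 and 0.0376 CPM in the day 7 grafts. Every graft lay under every control, and the change was -2.57 ± 0.45 (adjusted p = 0.000205) at day 3, and -2.63 ± 0.45 (adjusted p = 0.000156) at day 7. Col4a3 reached the filter level only in the controls, so it could be tested only because it was high there. It is among the chains counted as lower at both times. It had 1 to 40 counts per sample over all groups, and an opposite-strand transcript (C430014B12Rik) overlapping it had 85% as many counts. Col4a4 was at 2.62, 3.54, 1.22, 5.35 and 1.71 CPM in the controls, 1.84, 2.99, 0.591, 0.54 and 0.8 CPM in the day 3 grafts and 0.487, 0.667, 0.27, 0.945 and 0.113 CPM in the day 7 grafts. It did not pass at day 3 (-1.21 ± 0.54, adjusted p = 0.0631) and fell at day 7 (-2.65 ± 0.63, adjusted p = 0.00222), where no graft reached the lowest control. The day 3 change passed under 8 alternatives, among them those without control 3 (adjusted p = 0.026) and without day 3 graft 2 (adjusted p = 0.022). Col4a5, a chain of skin, kidney and smooth muscle membranes, was at 6.87, 6.57, 2.9, 19.9 and 15.4 CPM in the controls, 27.4, 14.7, 10.9, 17.5 and 21.7 CPM in the day 3 grafts and 12.5, 26.7, 13.3, 21 and 31.2 CPM in the day 7 grafts. Its day 7 change of 1.20 ± 0.45 (adjusted p = 0.0317) rested on overlapping groups, and the call was lost without control 1, 2 or 3 or without day 7 graft 2, 4 or 5 (adjusted p 0.0507 to 0.114). Col4a6, its neighbour and partner, had means of 0.361 ± 0.238 CPM, 0.346 ± 0.135 CPM and 1.09 ± 1.21 CPM and was not called.

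The 6 type IV genes lie in head-to-head pairs in the coordinates of the matrix (mm10 is the build named in the submitters' processing notes). Col4a1 and Col4a2 overlap by 22 bases on chromosome 8, Col4a4 and Col4a3 lie 71 bases apart on chromosome 1, and Col4a6 and Col4a5 lie 1.31 kb apart on chromosome X. The Col4a1 to Col4a2 TPM ratio was 1.73 to 2.18 in all 15 samples and passed no test between groups (adjusted p 0.0635 to 0.304, exact permutation tests over 5 samples in each group). The sources do not say whether counting used strand, so the overlap of Col4a1 and Col4a2 leaves the reads of the shared bases uncertain.

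The network chains of type VIII, which lines vessels and the corneal endothelium, had some of the largest changes. Col8a1 (ENSMUSG00000068196, chr16:57624258-57754737) was at 3.25, 3.43, 2.04, 5.01 and 4.69 CPM in the controls, 58.8, 20.7, 48.1, 48.8 and 68.1 CPM in the day 3 grafts and 199, 175, 132, 198 and 54.2 CPM in the day 7 grafts. All grafts were above all controls, by 3.68 ± 0.55 (adjusted p = 5.41e-05) at day 3, and by 5.28 ± 0.56 (adjusted p = 2.3e-06) at day 7. Between the graft groups it rose by 1.60 ± 0.36 (adjusted p = 0.0206), but day 7 graft 5 lay inside the day 3 range and the call was lost without day 7 graft 1, 2, 3 or 4 (adjusted p 0.0507 to 0.0617). Col8a2 (ENSMUSG00000056174, chr4:126286793-126314330) was at 0.419, 0.174, 0.181, 0.253 and 0.284 CPM in the controls, 0.841, 0.0712, 0, 0 and 0.0762 CPM in the day 3 grafts and 31, 44.1, 17.2, 30.6 and 5.61 CPM in the day 7 grafts. These values rest on 3 to 8 counts per control and on 21, 2, 0, 0 and 2 counts in day 3 grafts 1 to 5, against 149 to 1322 counts in the day 7 grafts. Col8a2 reached the filter level in all samples of the day 7 group only, so it could be tested only because it was high there. It is among the chains counted as higher at day 7 and between the grafts, also in the counts without overlap. It was not called at day 3 (-1.83 ± 1.78, adjusted p = 0.386). Its fitted change at day 7 was 6.25 ± 1.14 (adjusted p = 0.00028) against the controls and 8.09 ± 1.43 (adjusted p = 0.00747) against day 3. Without day 3 graft 1 the second was 8.95, and the fitted size depends on the offset added to the 0 counts. Col10a1, the network chain of growth plate cartilage, had 0 to 9 counts per sample.

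Of 6 tested FACIT chains, 3 rose and 1 fell at both times. Among all tested genes, 30.1% rose and 30.3% fell at day 3, and 32.2% and 28.4% at day 7. Col12a1 (ENSMUSG00000032332, chr9:79598991-79718831), which coats type I fibrils in tissue under load and in wounds, was at 3.04, 1.64, 2.37, 2.44 and 8.47 TPM in the controls, 77.4, 65.7, 57, 77.6 and 74.1 TPM in the day 3 grafts and 305, 223, 297, 240 and 135 TPM in the day 7 grafts. The 3 groups did not overlap. It rose by 4.30 ± 0.29 (adjusted p = 1.29e-07) at day 3, by 6.01 ± 0.31 (adjusted p = 1.43e-08) at day 7, and by 1.71 ± 0.31 (adjusted p = 0.00791) between the grafts. Control 5 was at 38.5 CPM against 10.5 to 17.1 CPM in the other controls. Its relative Col14a1 (ENSMUSG00000022371, chr15:55307750-55520803) was at 15.3, 20.9, 13.4, 21.3 and 34.5 TPM in the controls, 122, 69, 38.6, 68.5 and 92.9 TPM in the day 3 grafts and 109, 196, 90.7, 132 and 90.7 TPM in the day 7 grafts. All grafts lay above all controls and the graft groups overlapped. The change was 1.70 ± 0.34 (adjusted p = 0.000599) at day 3, and 2.30 ± 0.35 (adjusted p = 5.78e-05) at day 7. Col16a1 (ENSMUSG00000040690, chr4:130047840-130099283), a chain that links fibrils to other matrix, was at 6.56, 4.57, 4.96, 4.51 and 15.6 TPM in the controls, 70.2, 87.1, 43.7, 86.6 and 88.7 TPM in the day 3 grafts and 124, 191, 176, 197 and 113 TPM in the day 7 grafts. Its groups were separate at each step, with changes of 3.28 ± 0.26 (adjusted p = 3.04e-07) at day 3, and 1.12 ± 0.22 (adjusted p = 0.0124) from day 3 to day 7.

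The other FACIT chains were low. Col20a1 fell from 2.76 ± 1.01 CPM to 1.33 ± 0.428 CPM and 1.23 ± 0.775 CPM, with overlapping groups. The fall at day 3 was 2-fold (adjusted p = 0.0267), and the change at day 7 was -1.24 ± 0.37 (adjusted p = 0.00948). The day 3 call was lost without control 1, 2 or 4 or without day 3 graft 1 or 3 (adjusted p 0.0515 to 0.0668), and both calls were lost on the TPM scale (adjusted p 0.0822 to 0.161). A same-strand noncoding gene, 9230112E08Rik, overlaps Col20a1 and held 592% of its counts, so the split of reads between them is uncertain. Col9a3, a cartilage FACIT chain, had 0.732 ± 0.352 CPM, 0.924 ± 0.389 CPM and 0.822 ± 0.192 CPM. Col22a1, known from muscle-tendon junctions, had 0.413 ± 0.317 CPM, 0.372 ± 0.231 CPM and 0.349 ± 0.119 CPM. Neither was called in any comparison. The cartilage chains Col9a1 and Col9a2 had at most 5 and 29 counts in a sample, and Col19a1 at most 16.

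The type VI genes fell into chains that rose and chains that fell. Col6a1, Col6a2 and Col6a3 make the standard microfibril, which is abundant in fat. Col6a1 (ENSMUSG00000001119, chr10:76708792-76726168) was at 49.3, 43.1, 47.5, 68.5 and 118 TPM in the controls, 275, 224, 163, 183 and 259 TPM in the day 3 grafts and 490, 709, 649, 716 and 350 TPM in the day 7 grafts. Col6a2 (ENSMUSG00000020241, chr10:76595762-76623630) was at 35.7, 27, 34.8, 56.1 and 75.1 TPM in the controls, 174, 147, 112, 116 and 183 TPM in the day 3 grafts and 295, 449, 400, 448 and 227 TPM in the day 7 grafts. Col6a3 (ENSMUSG00000048126, chr1:90765923-90843971), whose C-terminal fragment is released as endotrophin, was at 45.6, 29.8, 43.7, 71.1 and 119 TPM in the controls, 351, 288, 271, 268 and 383 TPM in the day 3 grafts and 700, 780, 954, 816 and 463 TPM in the day 7 grafts. For each of these chains the groups were separate at both steps, and day 7 graft 5 was lowest at day 7. Control 5 was highest among the controls in TPM, while in CPM control 4 was highest for Col6a2. At day 3 the changes were 1.53 ± 0.29 (adjusted p = 0.000365) for Col6a1, 1.44 ± 0.30 (adjusted p = 0.000742) for Col6a2, and 2.24 ± 0.34 (adjusted p = 6.42e-05) for Col6a3. At day 7 they were 2.81 ± 0.31 (adjusted p = 2.98e-06), then 2.64 ± 0.31 (adjusted p = 6.47e-06), and 3.40 ± 0.36 (adjusted p = 2.45e-06). Between the grafts Col6a1 passed (1.28 ± 0.33, adjusted p = 0.0367). Col6a2 (1.20 ± 0.33, adjusted p = 0.0516) and Col6a3 (1.16 ± 0.39, adjusted p = 0.105) had changes of like size that did not. The Col6a1 call was lost without day 3 graft 2, 3, 4 or 5 or without day 7 graft 1, 2, 3 or 4, and Col6a2 passed under 13 alternatives, among them the fit of the 2 graft groups alone (adjusted p = 0.00566).

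Col6a4, Col6a5 and Col6a6 encode longer chains that can stand in for Col6a3 and have a narrow tissue range. All were far lower than Col6a3, with control means of 5.42, 1.56 and 0.912 TPM. Col6a4 (ENSMUSG00000032572, chr9:105989454-106096783) was at 12.5, 9.64, 19.3, 0.8 and 15.6 CPM in the controls, 0.601, 0.819, 0.211, 0.396 and 0.762 CPM in the day 3 grafts and 2.66, 1.67, 2.13, 1.28 and 0.339 CPM in the day 7 grafts. In 4 controls it was far above every graft, while control 4 lay among them, so the groups overlapped. Control 4 is also the control with 24.4 TPM of lymph node markers against 823 to 1586 TPM in the others. The grafts held 0.28 to 5.86 TPM. All 5 lymph node markers fell with Col6a4 at both times, beside 30.3% of all tested genes at day 3 and 28.4% at day 7. The part of these markers in the Col6a4 change was not tested. The change was -3.84 ± 1.12 (adjusted p = 0.00827) at day 3, and -2.46 ± 0.90 (adjusted p = 0.0287) at day 7. Without control 4 it was -4.73 and -3.36. The day 7 call was lost without control 3, control 5, day 7 graft 4 or day 7 graft 5 (adjusted p 0.0502 to 0.0702).

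Col6a5, also present in skin, was at 13.4, 4.3, 9.37, 2.7 and 11.7 CPM in the controls, 3.28, 1.85, 0.338, 0.793 and 1.22 CPM in the day 3 grafts and 3.26, 8.41, 12.9, 7.51 and 13.3 CPM in the day 7 grafts. It fell at day 3 (-2.56 ± 0.69, adjusted p = 0.00537) and rose between the grafts (2.81 ± 0.67, adjusted p = 0.0284), with day 7 levels that overlapped the controls. The rise was lost without day 3 graft 3, 4 or 5 or day 7 graft 2, 3 or 4 (adjusted p 0.0537 to 0.079). Col6a6 was at 6.45, 7.09, 4.44, 12.2 and 6.4 CPM in the controls, 6.57, 2.56, 1.39, 2.02 and 2.59 CPM in the day 3 grafts and 4.57, 17.7, 8.17, 10.3 and 3.61 CPM in the day 7 grafts. It fell at day 3 (-1.41 ± 0.51, adjusted p = 0.0266), a call lost without control 4, day 3 graft 3 or day 3 graft 4 (adjusted p 0.0609 to 0.0674) and on the TPM scale. The 3 genes lie in a row on chromosome 9, on the same strand and 27.9 and 28.8 kb apart, while Col6a1 and Col6a2 neighbour each other on chromosome 10.

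Of the remaining chains, Col7a1 and Col23a1 fell at day 3 and rose from day 3 to day 7. Col7a1 (ENSMUSG00000025650, chr9:108953586-108984875), the chain of the anchoring fibrils under the epidermis, was at 2.88, 2.79, 2.9, 2.53 and 3.98 CPM in the controls, 1.92, 2.1, 0.844, 1.48 and 1.52 CPM in the day 3 grafts and 15.1, 13.5, 17.8, 16.7 and 8.85 CPM in the day 7 grafts. All day 3 grafts were under all controls and all day 7 grafts were above both groups. The change was -0.97 ± 0.33 (adjusted p = 0.0202) at day 3, 2.23 ± 0.25 (adjusted p = 4.2e-06) at day 7, and 3.19 ± 0.28 (adjusted p = 0.000133) between the grafts. The fall at day 3 was lost without day 3 graft 3 (adjusted p = 0.054), with library totals as scaling (adjusted p = 0.0537) and on the TPM scale. Col23a1 (ENSMUSG00000063564, chr11:51289920-51583918), a transmembrane collagen that is shed from cells, was at 7.76, 6.39, 5.93, 4.21 and 3.37 CPM in the controls, 0.881, 1.42, 0.886, 1.73 and 0.648 CPM in the day 3 grafts and 14.6, 8.14, 10.4, 7.18 and 1.66 CPM in the day 7 grafts. It fell at day 3 without overlap (-2.29 ± 0.65, adjusted p = 0.00741). At day 7 the grafts spanned the control range, and the rise from day 3 (2.69 ± 0.62, adjusted p = 0.0251) was lost without day 3 graft 3, 4 or 5 or day 7 graft 2, 3 or 4 (adjusted p 0.0505 to 0.0636). Against the controls Col23a1 was not called at day 7 (0.40 ± 0.48, adjusted p = 0.481), but it was without day 7 graft 5 (0.90, adjusted p = 0.0102).

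The multiplexins Col15a1 and Col18a1 lie at the outer face of basement membranes, and Col18a1 is the source of endostatin. Col15a1 (ENSMUSG00000028339, chr4:47208161-47313167) was at 52.5, 46.4, 49.2, 65.3 and 33.2 TPM in the controls, 56.2, 113, 93.8, 80.7 and 81.5 TPM in the day 3 grafts and 138, 160, 182, 205 and 81.9 TPM in the day 7 grafts. At day 3 it overlapped the controls and was not called (0.51 ± 0.27, adjusted p = 0.118), while at day 7 it rose by 1.32 ± 0.28 (adjusted p = 0.000933), with overlap in CPM and none in TPM. On the TPM scale, without control 4 and under 3 further alternatives the day 3 change passed (adjusted p 0.0172 to 0.041). Col18a1 (ENSMUSG00000001435, chr10:77052178-77166548) was at 10.6, 7.12, 8.82, 10.7 and 18.7 TPM in the controls, 32.3, 58.4, 36.7, 40.9 and 35.8 TPM in the day 3 grafts and 99.2, 99, 133, 140 and 42.9 TPM in the day 7 grafts. All grafts were above all controls, by 1.53 ± 0.29 (adjusted p = 0.000349) at day 3, and by 2.72 ± 0.30 (adjusted p = 3.39e-06) at day 7. Between the grafts it rose by 1.19 ± 0.31 (adjusted p = 0.0391), with day 7 graft 5 inside the day 3 range. That call was lost under 13 alternatives, among them those without control 1, day 3 graft 1, 3, 4 or 5, or day 7 graft 1, 2, 3 or 4 (adjusted p 0.0537 to 0.106). Summed endothelial markers were at 124 to 178 TPM in control tissue, 206 to 665 TPM in day 3 grafts and 261 to 542 TPM in day 7 grafts. Of these 6 markers, 4 were called higher than in the controls at each time, beside 30.1% and 32.2% of all tested genes. Kdr and Tek were called at neither time. The part of endothelial markers in the multiplexin changes was not tested.

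Col17a1, the hemidesmosome collagen of epithelia, had 1.08 ± 1.03 CPM, 0.346 ± 0.0669 CPM and 0.266 ± 0.0696 CPM. Control 1 had the highest value at 2.83 CPM and also 98.5 TPM of keratinocyte markers, against 2.62 to 4.68 TPM in the other controls, and the part of this was not tested. The day 7 change (-1.46 ± 0.55, adjusted p = 0.0315) was called, but not without day 7 graft 1 or 5 (adjusted p 0.0533 and 0.07). Col17a1 reached the filter level in 4 controls, 1 day 3 graft and 0 day 7 grafts, so it could be tested mainly because it was high in the controls. It is among the chains counted as lower at day 7. Of 29 alternatives it was tested in 19, and 6 of these ended the call. Col28a1, a collagen of peripheral nerve, had 5.26 ± 2.41 CPM, 5.12 ± 2.8 CPM and 8.16 ± 2.28 CPM and was not called. Schwann cell markers summed to 55.1 to 110 TPM in the controls and 13.3 to 26 TPM in the grafts, and their part in the levels of Col28a1 and Col20a1 was not tested. Among the untested chains, Col13a1 had 2 to 22 counts in a sample, Col25a1 0 to 14 and Col26a1 0 to 19.

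The 12 chains that rose from day 3 to day 7 came from 5 of the 6 classes, and none was a type IV chain. They were Col11a1, Col24a1 and Col27a1, Col8a1 and Col8a2, Col12a1 and Col16a1, Col6a1 and Col6a5, and Col7a1, Col18a1 and Col23a1. Types I and III, the most abundant, were not among them. In all of them but Col6a5, day 7 graft 5 had the lowest day 7 value. It was also the day 7 graft with the lowest myofibroblast and mural markers (246 TPM), and the part of this in the chain levels was not tested. Other markers also set this graft apart, with the highest mesothelium sum (41.1 TPM, others 1.62 to 11.6 TPM) and the lowest day 7 sums of endothelial (261 TPM) and cartilage (1.47 TPM) markers. Without day 3 graft 1 and day 7 graft 5, 14 chains rose and 0 fell, and the share of all genes called higher was 5.8%. Of the myofibroblast and mural markers, 4 of 6 rose between the grafts (3.18% of all genes), among them the smooth muscle genes Acta2 (2.42 ± 0.32, adjusted p = 0.00125) and Tagln (2.85 ± 0.30, adjusted p = 0.00029), which were picked out after their values were seen.

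**Figure D4:**
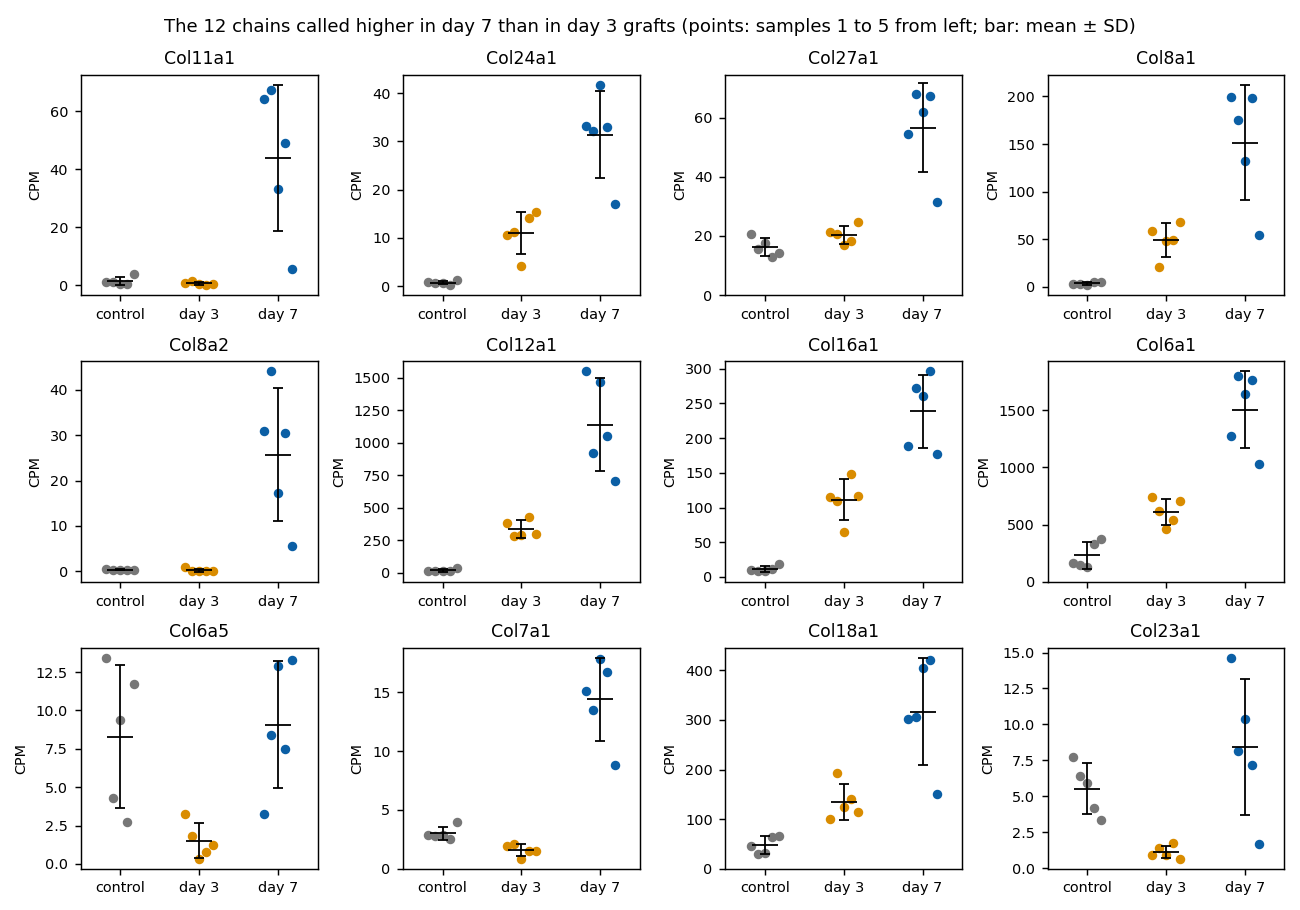
CPM of the 12 chains called higher in day 7 than in day 3 grafts, with points for samples 1 to 5 of each group from left to right and bars for the mean ± SD. The fifth day 7 graft lies under the other day 7 grafts for chains such as Col11a1, Col8a1 and Col23a1, and Col6a5 and Col23a1 dip at day 3.

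Ratios between chains within a sample cancel the library scaling, apart from the 0.1 TPM added to each chain. In all, 12 ratios were compared between groups by exact two-sided permutation tests of the mean log2 TPM ratio, 36 tests in all with Benjamini-Hochberg adjustment. With 5 against 5 samples the smallest possible p is 0.00794. The tests called 5 ratios at day 3, 6 at day 7 and 5 between the grafts. For type I, the Col1a1 to Col1a2 ratio was 0.406, 0.365, 0.361, 0.348 and 0.438 in the controls, 0.538, 0.606, 0.648, 0.628 and 0.585 in the day 3 grafts and 0.45, 0.457, 0.502, 0.512 and 0.556 in the day 7 grafts. It rose 1.57-fold at day 3 (adjusted p = 0.026, exact permutation test, no overlap) and was still 1.29-fold higher at day 7. The Col3a1 to Col1a1 ratio was 6.64, 7.41, 7.69, 7.92 and 7.7 in the controls, 6.45, 5.85, 4.77, 6.01 and 5.1 in the day 3 grafts and 5.57, 4.77, 4.4, 3.93 and 5.43 in the day 7 grafts. It fell by 0.41 on the log2 scale at day 3 and by 0.64 at day 7 (both adjusted p = 0.026, exact permutation tests).

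Within type V, Col5a3 fell behind Col5a1. The ratio was 1.32, 1.98, 1.56, 1.52 and 0.82 in the controls, 0.83, 0.842, 1.15, 0.664 and 0.871 in the day 3 grafts and 0.39, 0.367, 0.471, 0.48 and 0.7 in the day 7 grafts, and the drop by 1.56 on the log2 scale at day 7 passed (adjusted p = 0.026, exact permutation test). At day 3 it was -0.69 (adjusted p = 0.068), or -0.88 without control 5 (adjusted p = 0.0317, exact permutation tests). In type VI, the Col6a3 to Col6a1 ratio was 0.924, 0.692, 0.922, 1.04 and 1.01 in the controls, 1.28, 1.29, 1.66, 1.46 and 1.48 in the day 3 grafts and 1.43, 1.1, 1.47, 1.14 and 1.32 in the day 7 grafts, 1.57-fold higher at day 3 and 1.41-fold at day 7 with no overlap (both adjusted p = 0.026, exact permutation tests). The Col6a1 to Col6a2 ratio ran from 1.22 to 1.66 over all samples and was not called. In the FACIT class, the Col12a1 to Col14a1 ratio was 0.199, 0.0786, 0.177, 0.115 and 0.246 in the controls, 0.634, 0.952, 1.48, 1.13 and 0.798 in the day 3 grafts and 2.79, 1.13, 3.28, 1.81 and 1.49 in the day 7 grafts. Col14a1 was the more abundant of the pair in every control and Col12a1 in every day 7 graft. The ratio was 6.15-fold higher at day 3 and 12.5-fold at day 7 than in the controls (adjusted p = 0.026), and 2.03-fold higher at day 7 than at day 3 (adjusted p = 0.0357, exact permutation tests).

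The Col8a1 to Col8a2 ratio rose at day 3, while its day 7 level against the controls depended on the offset. On the log2 scale with 0.1 TPM added, its mean was 2.41 ± 0.37 (SD) in control tissue, 6.50 ± 0.86 in day 3 grafts and 2.44 ± 0.45 in day 7 grafts. Day 3 stood 17-fold above the controls and 16.7-fold above day 7 (both adjusted p = 0.026, exact permutation tests). With 1 TPM added, the difference at day 3 was 2.96 in place of 4.09, and from estimated counts it was 5.12. Col8a2 had 0 counts in day 3 grafts 3 and 4. At day 7 the difference from the controls was 0.03 (adjusted p = 0.937), but 1.51 with 1 TPM added (adjusted p = 0.0204, exact permutation tests). With nothing added, the ratio was 6.25 to 16.4 in the controls and 3.33 to 8.13 in the day 7 grafts. The Col15a1 to Col18a1 ratio was 4.94, 6.52, 5.58, 6.1 and 1.78 in the controls, 1.74, 1.93, 2.56, 1.97 and 2.27 in the day 3 grafts and 1.39, 1.61, 1.37, 1.47 and 1.91 in the day 7 grafts. Control 5 lay apart from the other controls. The ratio fell by 1.55 on the log2 scale at day 7 (adjusted p = 0.0357), and by 1.46 at day 3 when control 5 was left out (adjusted p = 0.0238, exact permutation tests). The ratios of Col5a1 to Col5a2, Col4a3 to Col4a4 and Col4a5 to Col4a6 did not pass. Leaving out a single sample does not raise the smallest p these tests can give. Without day 7 graft 1, the day 7 calls of Col1a1/Col1a2 and Col5a3/Col5a1 were lost (adjusted p = 0.0519, exact permutation tests). That of Col15a1/Col18a1 was lost without day 7 graft 1, 2, 3 or 4. Between the grafts, Col8a1/Col8a2 kept its call without any single sample, while Col1a1/Col1a2, Col5a3/Col5a1, Col12a1/Col14a1 and Col15a1/Col18a1 lost theirs without most single grafts, day 3 graft 2, day 3 graft 5 and day 7 graft 1 among them.

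**Figure D5:**
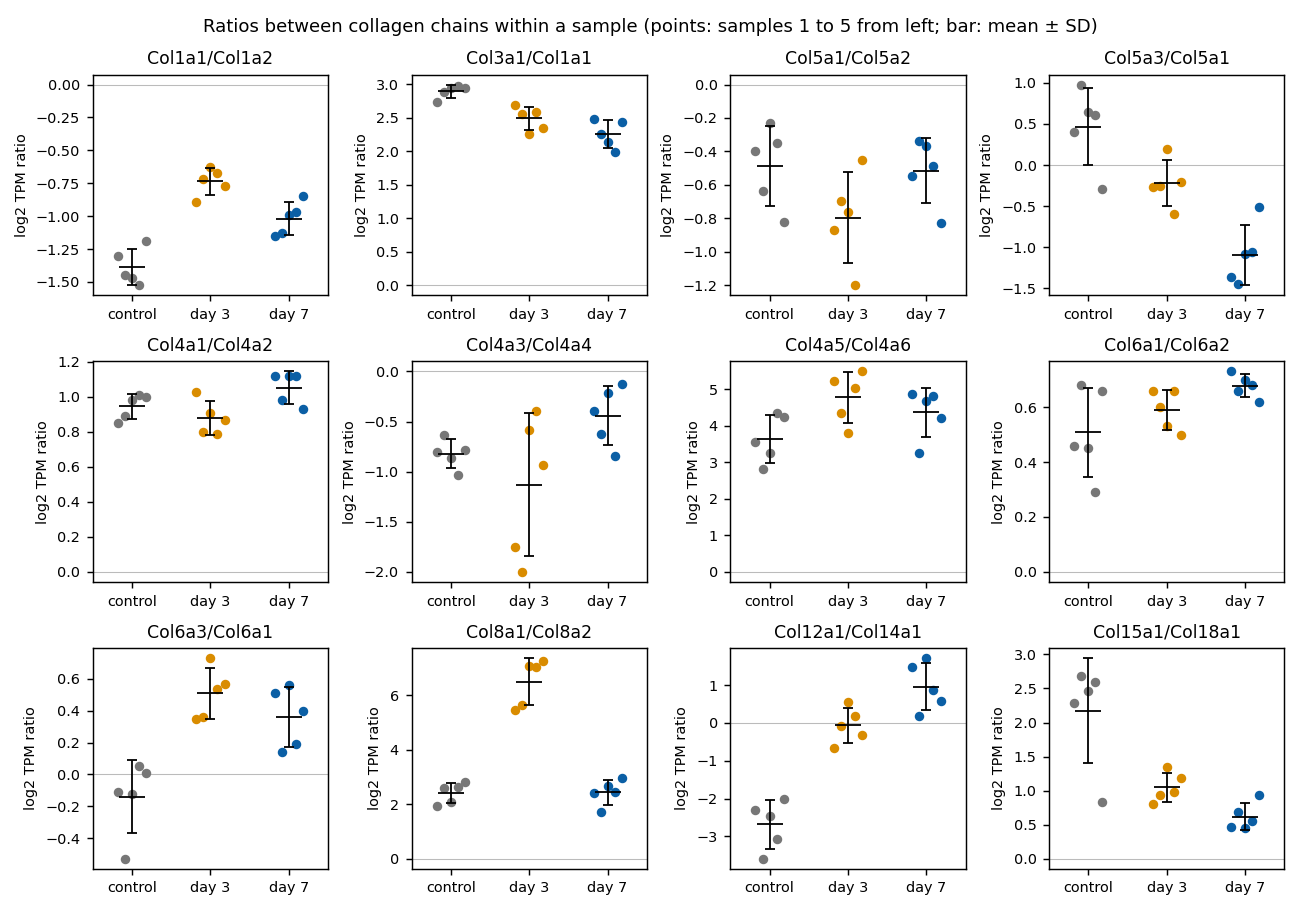
Log2 ratio of TPM (0.1 added to each chain) for 12 pairs of chains, with points for samples 1 to 5 of each group from left to right and bars for the mean ± SD. Col12a1 to Col14a1 climbs over the 3 groups, Col8a1 to Col8a2 peaks at day 3, and Col4a1 to Col4a2 stays between 1.73 and 2.18 as a plain ratio.

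Most genes that make, cross-link, bind or cleave collagen were also higher in the grafts. Of 18 biosynthesis genes (hydroxylases, chaperones and export factors), 16 rose and 0 fell at each time against the controls, with median log2 changes of 2.19 and 2.13. Among them, Plod2, a lysyl hydroxylase of the cross-link sites, went from 13.2 ± 7.51 to 197 ± 46.9 and 198 ± 22 CPM (4.00 ± 0.27, adjusted p = 1.29e-07 at day 3). P4ha2, a prolyl hydroxylase subunit, rose by 3.81 ± 0.32 at day 3 (adjusted p = 4.76e-07), and P4ha3 from 1.41 ± 2.23 to 22.5 ± 7.79 and 53 ± 12.2 CPM. Between the grafts 0 of 18 were called by limma, and 1 was higher and 0 lower at an unadjusted p under 0.05. Of 12 processing and cross-linking genes, 11 rose at both times. Lox, the lysyl oxidase that starts cross-linking, went from 72.4 ± 68.3 to 1150 ± 351 and 1021 ± 452 CPM (4.45 ± 0.58, adjusted p = 1.65e-05 at day 3). Loxl2 and Loxl3 rose by 3.97 ± 0.40 (adjusted p = 1.78e-06) and 3.27 ± 0.33 (adjusted p = 1.76e-06) at day 3. Pcolce2, an enhancer of procollagen cleavage, was the gene of that list that fell at day 7 (-1.36 ± 0.47, adjusted p = 0.0216), and is named after its value was seen. Without day 7 graft 2 or 3, and on the TPM scale, no gene of the list was called lower. Between the grafts 0 of the 12 were called by limma, with 1 higher and 2 lower at an unadjusted p under 0.05.

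Of 9 receptors and uptake genes, 6 rose at day 3 and 6 at day 7. Itga10, a collagen-binding integrin named after its value was seen, fell at day 3 (-0.70 ± 0.29, adjusted p = 0.0464). Under 18 of 29 alternatives no gene of this list was called lower. Mrc2, an endocytic collagen receptor, rose by 2.49 ± 0.21 (adjusted p = 4.68e-07) and 3.21 ± 0.22 (adjusted p = 7.64e-08). Lair1, an inhibitory collagen receptor of leukocytes, rose by 3.37 ± 0.40 at day 3 (adjusted p = 7.1e-06), and Itga11, a collagen-binding integrin of fibroblasts, by 1.54 ± 0.53 (adjusted p = 0.0215), a call lost without control 3 (adjusted p = 0.0696) or control 5 (adjusted p = 0.0542). All 6 collagen-cleaving proteases rose at both times. Mmp13 went from 0.462 ± 0.384 to 59.1 ± 22.8 and 39.4 ± 19 CPM (7.16 ± 0.99, adjusted p = 2.69e-05 at day 3). Mmp14, a membrane collagenase, rose further between the grafts (1.04 ± 0.28, adjusted p = 0.0469), a call lost under 14 of 29 alternatives, among them those without control 1 or 2, day 3 graft 1, 2, 3, 4 or 5, or day 7 graft 1, 2, 3 or 4 (adjusted p 0.0536 to 0.128). The lysosomal protease Ctsk, named after its value was seen, also rose between the grafts (1.44 ± 0.33, adjusted p = 0.0228). None of the 9 receptors and uptake genes was called between the grafts by limma, with 4 higher and 1 lower at an unadjusted p under 0.05. The lists were chosen for their known link to collagen, and their counts stand beside 30.1% of all genes called higher at day 3 and 32.2% at day 7.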

How the data were processed

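Libraries from adipose tissue were prepared from polyadenylated RNA with a stranded kit and sequenced as pairs of 151-base reads, per the labels' protocols. The matrix deposited by the authors lists 55471 genes with estimated read counts, RPKM and TPM in 15 samples, per the file headers. Cutadapt 2.8, STAR 2.7.1a, RSEM 1.3.1 and mm10 are named in the submitters' processing notes, without their roles. The RPKM values, deposited by the authors, were not used. The deposited TPM values were used for levels and ratios between chains. Whole-number counts totalled 17.1 to 32 M per sample.

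Counts were scaled by trimmed means of log ratios (factors 0.746 to 1.14). Genes with at least 0.389 CPM in 5 samples and a total of at least 15 counts were kept, which left 16051. They were fitted by limma-voom (limma 3.58.1 in R 4.3.3) with the 15 samples in 3 group means. Genes with adjusted p below 0.05 count as called. The fit was checked on simulated counts. Ratios were tested in Python 3.11.15 with SciPy 1.17.1 by exact permutation, with 0.1 TPM added. No 2 libraries of a group agreed within sampling noise. Alternatives covered scaling, filters, limma-trend, sample weights, a replicate block, fits of 2 groups and samples left out. Leaving out control 5, day 3 graft 1 and day 7 graft 5 together was chosen after seeing the data.

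Each sample's values are given for chains with a group mean of at least 100 TPM, or among the 3 largest called changes of their class with a mean of at least 2 CPM, and for some other chains chosen after their values were seen. Up to 3 genes of each pathway list were named by size of change (at least 10 CPM). The members, classes and lists were chosen with earlier results of these data known. Genes whose models overlap another gene on the opposite strand are uncertain where the counting ignored strand, which the sources do not state.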

Additional observations from a re-analysis of the deposited data

Results flagged for a closer look

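Of 75 sets of 5 CPM values (25 chains in 3 groups), 5 held a sample whose gap to its nearest neighbour exceeded 0.71 of the whole range, and chance gives about 1 in 20. Control 5 was high for Col11a1 (3.7 CPM, others 0.506 to 1.15), Col12a1 (38.5 CPM, others 10.5 to 17.1) and Col7a1 (3.98 CPM, others 2.53 to 2.9). Control 4 was high for Col5a3 with 362 CPM, where the other controls had 126 to 178 CPM. This library had the lowest scaling factor (0.746). In TPM it was at 49, with the other controls at 29.8 to 37.3, a gap that did not reach the cut-off. Day 3 graft 1 had 0.841 CPM of Col8a2, where the other day 3 grafts had 0 to 0.0762 CPM.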

How the results depend on the processing

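The count of lower chains was the least stable. At day 3 it was 5 with both TPM fits in place of 8, and 5 to 9 without single samples. At day 7 the 6 lower chains became 3 with library totals, both TPM fits, the fit of 2 groups, or without day 3 graft 1 and day 7 graft 5. They became 2 without control 2 and day 3 graft 1, 2 without control 5, day 3 graft 1 and day 7 graft 5, and 2 to 6 without single samples. Between the grafts the 12 higher chains were 19 with sample quality weights, where the share of all genes called higher went from 3.18% to 13.3%, and 7 to 15 without single samples (1.44% to 6.23% of all genes). Library totals moved the all-gene median to 0.12 at day 7, and no filter moved it to -0.185 at day 3.

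Same-numbered samples deviated together by correlations of -0.183 to 0.341, over 0.1 in at most 2 of 5 pairs. The labels do not say whether such samples share an animal, and these correlations cannot decide it. With the replicate block, 19 chains were higher and 9 lower at day 3, 23 and 6 at day 7, and 11 and 0 between the grafts. In each comparison at most 1 sample correlated best with its own number.

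Of the ratios, 0 were called at day 3 and 0 at day 7 without control 2 and day 3 graft 1. Between the grafts 0 were called without either pair of samples. The smallest p rises where both groups compared lose a sample, and does not where only 1 of them does. Without single samples 3 to 7 were called at day 7 and 1 to 5 between the grafts. Signs that turned belonged to differences that were not called in the main tests. Col4a3/Col4a4 at day 3 was 0.00 and Col4a5/Col4a6 between the grafts 0.02 with 1 TPM added. Col5a1/Col5a2 at day 7 was 0.04 from estimated counts, 0.05 without day 3 graft 1 and day 7 graft 5, and -0.11 to 0.05 without single samples. Col8a1/Col8a2 at day 7 was -0.86 from estimated counts, -0.10 without that pair, and -0.10 to 0.21 without single samples. With 1 TPM added it was 1.51 and was called (adjusted p = 0.0204, exact permutation test), so its sign and call depended on the offset. Between the grafts Col5a3 was -0.01 with median-of-ratios scaling and -0.12 to 0.15 without single samples, and Col4a5 -0.02 to 0.31. Of 21 uncalled values of the other chains, 11 changed sign under an alternative. The cause of these shifts was not tested. Chains with few counts (Col4a3, Col8a2) limit the precision of their changes.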
